A study of Mus musculus with 2 samples.

Results

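The enzymes described here are 7 genes of androgen activation and steroid dehydrogenation, Srd5a1, Srd5a2, Srd5a3, Hsd17b2, Hsd17b10, Hsd17b11 and Hsd17b12, in mouse ventral prostate with and without U19/Eaf2. They were found as every probe set, a group of short probes for a single transcript, whose platform annotation gave exactly 1 gene symbol belonging to that set of names. This found 13 probe sets of 34945 with a single symbol and 5 of the 7 genes, with 5 probe sets for Srd5a3, 3 for Hsd17b11, 2 each for Hsd17b10 and Hsd17b12 and 1 for Hsd17b2. Srd5a1 and Srd5a2 had 0 such probe sets and were not analysed here. RNA came from ventral prostates of male C57BL/6J mice aged 3 months, 1 sample of genotype U19/Eaf2 -/- and 1 of genotype U19/Eaf2 +/+, each read on 1 Affymetrix array. How the allele was made, which part of the gene it removes and whether prostates of several mice were pooled are details not given in the sources used here. With 1 array per genotype there was no replicate and no test, so each difference below describes these 2 arrays and carries no error between animals.

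The prostate turns circulating testosterone into the more potent dihydrotestosterone, which binds the androgen receptor of the same cells. The steroid 5α-reductases Srd5a1 and Srd5a2 carry out that step, whereas the related membrane reductase Srd5a3 is best known for its part in making dolichol, the lipid carrier of N-glycan assembly. The 17β-hydroxysteroid dehydrogenases add or remove hydrogen at the position that separates strong from weak androgens and oestrogens, and several of them work mainly on fatty acids or amino acid breakdown products. U19/Eaf2, an androgen-induced partner of ELL elongation factors, was the gene targeted in the study, which asked how mRNA levels differ in the gland when it is lost.

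The deposited values were linear signals in arbitrary units, and a floor at the median of all non-control signals, 166, stood in for detection calls. A value under the floor was raised to it before a ratio was taken, a ratio with 1 array under the floor is a bound, and no ratio is given where both arrays were under it. Signals of different probe sets are not compared with each other, because each set of probes binds with its own strength. Eaf2 itself read 702 on the -/- array and 691 on the +/+ array in its single probe set, a log2 ratio (-/- over +/+) of 0.02. That reading does not separate the genotypes, and since the deleted part is unknown it checks nothing about the labels, on which every direction below rests. Defining markers of secretory epithelium were bright on both arrays, with 10 of 10 measured members above the floor, among them Krt18 at 14438 on the -/- array and 14662 on the +/+ array. Seminal vesicle markers were under the floor on both arrays in 7 of 7. The arrays differed in other cell markers: 11 of 12 smooth muscle genes were lower on the -/- array (summed signal 46745 on the -/- array, 61041 on the +/+ array), as were 11 of 12 fibroblast genes (summed signal 22841 on the -/- array, 27789 on the +/+ array). Over all genes above the floor on at least 1 array, 53% were lower on the -/- array and 47% higher. Adipocyte markers summed to 3745 on the -/- array and 1806 on the +/+ array, of which Car3 alone read 1278 on the -/- array and 234 on the +/+ array. Of the measured adipocyte members 4 of 5 were higher, and Cidec, Lep and Pparg were under the floor on both arrays. The Actb 3' over 5' ratio, which rises with RNA degradation, was 1.65 on the -/- array and 1.25 on the +/+ array. In whole tissue, fewer cells of a type and less RNA per cell cannot be told apart, and the part of these differences in the values below was not tested.

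Of the 7 genes, 4 were above the floor, and 0 of these 4 differed by 2-fold or by 1.5-fold in either direction. Over the 11671 entering genes, a difference of 2-fold or more was found upward on the -/- array in 0.591% and downward in 0.883%, and of 1.5-fold or more upward in 4.69% and downward in 6.26%. By the brightest probe set of each gene, Hsd17b12 and Hsd17b11 were higher on the -/- array, with log2 ratios of 0.42 and 0.16. Hsd17b10 and Srd5a3 were lower, with log2 ratios of -0.11 and -0.19. The 2 of 4 genes above 0 stand beside 47% of all genes above 0 and 53% below it. These shares also stand beside the counts of higher and lower genes in every list here. The median log2 ratio of the 4 was 0.03, against -0.03 over all genes. At the probe-set level, 9 of the 13 were above the floor on both arrays, and 5 of these were higher and 4 lower on the -/- array, where 47.4% of all 17936 such probe sets were higher and 52.6% lower.

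**Figure D1:**
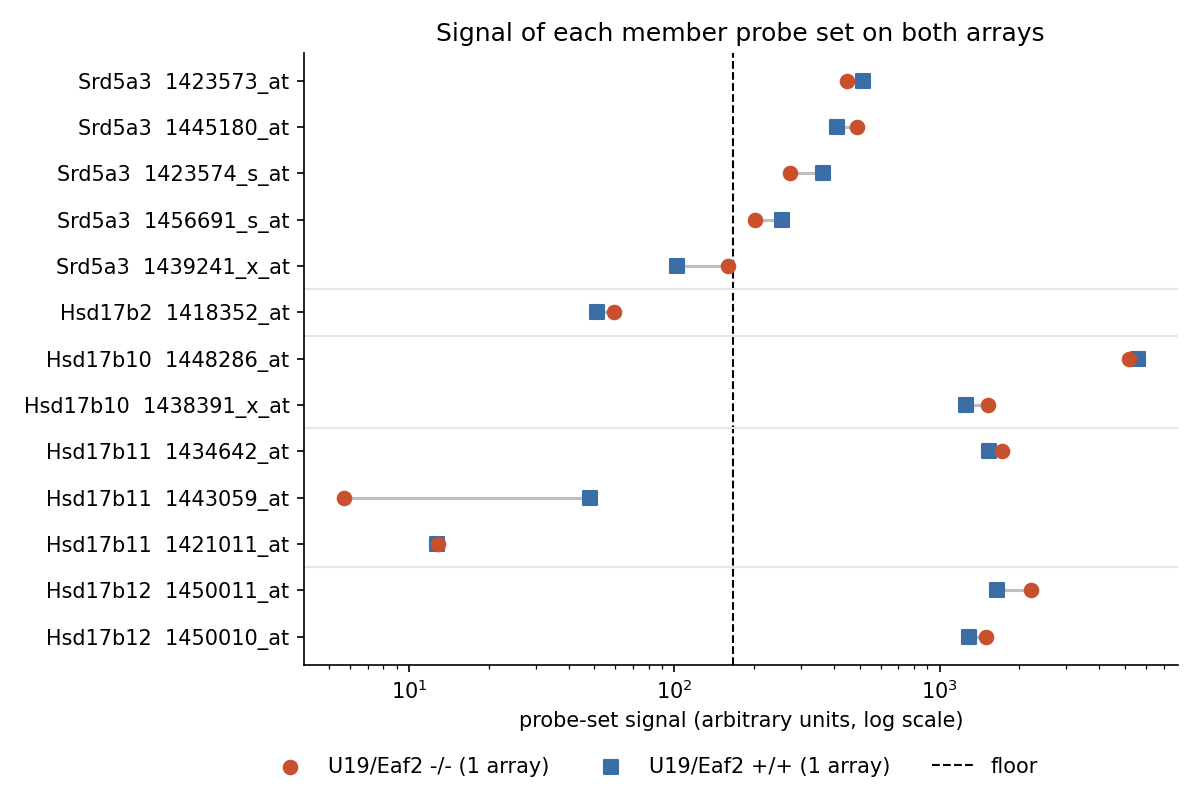
Signal of the 13 probe sets on both arrays, on a log axis in arbitrary units, with the -/- array as circles and the +/+ array as squares and 1 array for each genotype. The dashed line is the floor of 166, with 4 probe sets left of it on both arrays, and the 9 others lie right of it with the 2 arrays close together.

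Srd5a3 was the only one of the 3 5α-reductase genes with values here, and its 5 probe sets did not move in one direction. The brightest, 1423573_at, read 449 on the -/- array and 513 on the +/+ array, a log2 ratio of -0.19. Probe set 1423574_s_at, designed from the same sequence, read 274 on the -/- array and 363 on the +/+ array, a log2 ratio of -0.41. Probe set 1456691_s_at read 201 on the -/- array and 255 on the +/+ array, a log2 ratio of -0.35. These 3 were lower on the -/- array by 1.14- to 1.33-fold. The remaining probe set above the floor, 1445180_at, went the other way with 488 on the -/- array and 411 on the +/+ array, a log2 ratio of 0.25. The fifth, 1439241_x_at, shares its design sequence with 1456691_s_at and lay just under the floor, at 160.0 on the -/- array and 102 on the +/+ array, so that no ratio is given. The 4 log2 ratios of this gene spanned 0.66 and had an SD of 0.30 over probe sets, close to the 0.36 that pooled over 4497 genes with 2 or more probe sets that cleared the floor on both arrays. Mixed directions were common at this number of probe sets, since 22.5% of 453 genes with 4 measured probe sets had all of them on one side of 0.

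The pathway that Srd5a3 belongs to, dolichol synthesis and assembly of the lipid-linked sugar chain on it, had 16 of 21 genes lower on the -/- array, beside 53% of all genes. Its median log2 ratio was -0.16, against -0.03 over all genes, and lay between -0.18 and -0.08 under the alternatives tried. The lowest was Alg14, which helps to recruit the enzyme adding the second sugar of the chain. Alg14 read 483 on the -/- array and 787 on the +/+ array, a log2 ratio of -0.70. Its other probe set above the floor had -0.16. Alg12, a mannosyltransferase, had -0.46 and was lower in 3 of 3 probe sets. Dhdds, the catalytic subunit of the prenyltransferase that makes the polyprenyl precursor upstream of Srd5a3, had -0.31 with 3 of 3 probe sets lower. Nus1, the other subunit of that enzyme, had 0.26 with 5 of 6 probe sets higher, and the dolichol kinase Dolk also had 0.26. The subunits of the same prenyltransferase thus lay on opposite sides of 0, and 0 of the 21 genes differed by 2-fold.

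Hsd17b2, the enzyme that oxidises testosterone and oestradiol to their weaker keto forms, was under the floor on both arrays. Its only probe set, 1418352_at, read 59.1 on the -/- array and 51.2 on the +/+ array. Signals this low could not be told from background here, and a reading under the floor does not show that the transcript is absent.

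The other 17β-hydroxysteroid dehydrogenases gave 5 of 8 genes above the floor on at least 1 array, with 3 higher and 2 lower and a median log2 ratio of 0.05. Hsd17b4, the peroxisomal bifunctional enzyme of fatty acid oxidation, read 2126 on the -/- array and 1702 on the +/+ array, a log2 ratio of 0.32, while its other probe set read 982 on the -/- array and 976 on the +/+ array. Hsd17b7, which also reduces a sterol ketone in cholesterol synthesis, had 0.14, with other probe sets at -0.02 and at a bound of -0.67. H2-Ke6, an alternative symbol for Hsd17b8 of mitochondrial fatty acid synthesis, had 0.05. Hsd17b3, the testicular enzyme that makes testosterone, was under the floor on both arrays, as were Hsd17b6 and Hsd17b14. Hsd17b1, which forms oestradiol, reached the floor only on the +/+ array, at 76.6 on the -/- array and 176 on the +/+ array, a bound of -0.08.

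Genes listed under steroid synthesis from cholesterol were mostly under the floor, with 4 of 9 above it. The brightest probe sets of Cyp17a1, the lyase that makes androgen precursors, and of Hsd3b1, Hsd3b2, Hsd3b3 and Hsd3b5 read from 5.82 to 151 on the -/- array and from 6.01 to 76.6 on the +/+ array. Above the floor, Star, the mitochondrial cholesterol carrier, read 386 on the -/- array and 297 on the +/+ array, a log2 ratio of 0.37. Cyp11a1, the side-chain cleavage enzyme, had 0.28. For both genes the other 2 probe sets were under the floor. Cyb5a, a cytochrome that assists the lyase, had 0.05, and the electron carrier Fdx1 had -0.16.

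Aldo-keto reductases and short-chain dehydrogenases of retinol and steroids, some of which inactivate dihydrotestosterone, had 7 of 14 genes above the floor. Of these 7, 3 were higher and 4 lower, with a median log2 ratio of -0.04 that was 0.0019 under median centring. The steroid-inactivating Akr1c14 and Akr1c21 were under the floor on both arrays. The 7 measured genes are thus not a reading of dihydrotestosterone inactivation. Akr1c6 reached the floor only on the +/+ array, at 32.4 on the -/- array and 221 on the +/+ array, a bound of -0.42. The aldo-keto reductases Akr1c13 and Akr1c12, close relatives in sequence, differed in opposite directions. Akr1c13 read 2345 on the -/- array and 1646 on the +/+ array, a log2 ratio of 0.51. Akr1c12 read 1626 on the -/- array and 2246 on the +/+ array, a log2 ratio of -0.47. Each rests on 1 probe set, and because probes of such similar genes can bind each other's transcripts both values are uncertain. The retinol and steroid dehydrogenase Rdh11 had -0.34 and was lower in 2 of 2 probe sets, and the related Dhrs3 had 0.18. In steroid conjugation 4 of 11 genes were above the floor, with 2 on each side of 0 and a median of 0.06. Papss1, which makes the sulfate donor, had 0.38, while Papss2, which does the same, had 0.25 in its brightest probe set and -0.18 and -0.57 in the others above the floor. The oestrogen sulfotransferase Sult1e1 had -0.23 and the phenol sulfotransferase Sult1a1 -0.14.

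Hsd17b10 is a mitochondrial dehydrogenase that breaks down isoleucine and also forms part of the RNase P complex that cuts mitochondrial transfer RNAs from their precursors. Its probe set 1448286_at read 5183 on the -/- array and 5588 on the +/+ array, a log2 ratio of -0.11. Its other probe set, 1438391_x_at, read 1528 on the -/- array and 1258 on the +/+ array, a log2 ratio of 0.28. The direction therefore depended on the probe set, and the median over both was 0.09. Its RNase P partners also lay on opposite sides, with Trmt10c, the methyltransferase subunit, at 0.29 and Prorp, the nuclease subunit, at -0.37. In the list of these partners and of isoleucine breakdown enzymes, 6 of 11 genes were higher and 5 lower, with a median log2 ratio of 0.20 that became 0.05 both with probe sets averaged by their median and with the least altered probe set. Dbt, a core subunit of the branched-chain keto acid dehydrogenase, read 3469 on the -/- array and 2319 on the +/+ array, a log2 ratio of 0.58. Hadh, a fatty acid oxidation enzyme, had 0.39 with 2 of 3 probe sets higher, and the aminotransferase Bcat2 had -0.34.

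Hsd17b11, which oxidises a breakdown product of dihydrotestosterone and sits on lipid droplets, had 1 of 3 probe sets above the floor. That probe set, 1434642_at, read 1716 on the -/- array and 1532 on the +/+ array, a log2 ratio of 0.16. Of all probe sets that entered, 63.9% differed at least as far from 0. The other probe sets read 12.9 on the -/- array and 12.8 on the +/+ array for 1421011_at, and 5.68 on the -/- array and 48.1 on the +/+ array for 1443059_at. Both pairs were far under the floor, so the wide gap of the last pair gives no ratio. Hsd17b13, its relative and next protein-coding neighbour in the gene table of assembly GRCm38.p6, read 77.2 on the -/- array and 265 on the +/+ array, at least 1.60-fold lower. It was singled out for its position after its values were seen, and its other probe set was under the floor on both arrays. Among lipid droplet genes, a list that also holds Hsd17b13, 6 of 15 were higher and 9 lower, beside 53% of all genes lower. Of those 9, Hsd17b13, Cideb and Lipe were bounds. The median log2 ratio was -0.15 and became 0.14 with the floor at the 70th percentile. Fitm2, which helps droplets bud, had 0.49 and the seipin gene Bscl2 0.48, with 1 of its 2 probe sets lower, whereas the droplet coat protein Plin3 had -0.51 and the lipase Mgll -0.38. Adipocyte markers, summed above, were higher on the same -/- array; their part in this list was not tested.

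Hsd17b12 reduces the keto intermediate of very-long-chain fatty acid elongation in the endoplasmic reticulum and can also reduce steroid ketones. It was higher on the -/- array in 2 of 2 probe sets. Probe set 1450011_at read 2202 on the -/- array and 1643 on the +/+ array, a log2 ratio of 0.42, or 1.34-fold. Probe set 1450010_at read 1500.3 on the -/- array and 1294 on the +/+ array, a log2 ratio of 0.21, or 1.16-fold. Both came from the same design sequence and so are not independent readings. Both ratios lay inside the middle 95% of all probe sets that cleared the floor on both arrays, which ran from -0.78 to 0.72, and 24.98% of all probe sets that entered differed at least as far as the larger. Among 2652 genes with 2 probe sets that cleared the floor on both arrays, both were higher in 24.9% and the pair shared a direction in 54.1%.

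**Figure D2:**
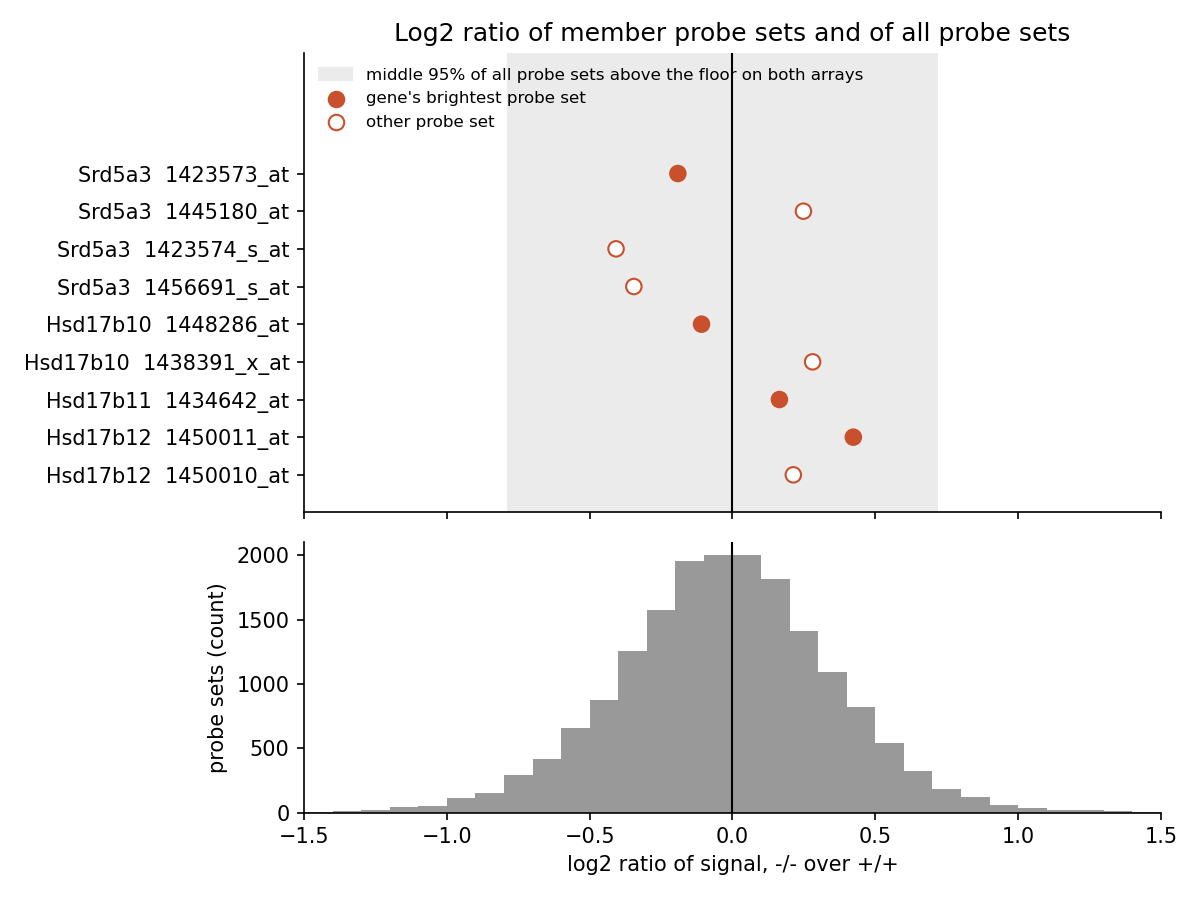
The upper panel gives the log2 ratio (-/- over +/+) of the 9 probe sets that cleared the floor on both arrays, filled for the brightest of each gene, over a grey band for the middle 95% of all such probe sets, and the lower panel counts all 17936 of them by log2 ratio within the plotted range. The points run from -0.41 to 0.42 and lie inside the band, which runs from -0.78 to 0.72.

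Genes of the elongation cycle in which Hsd17b12 acts lay on both sides of 0. Of 9 genes above the floor, 3 were higher and 6 lower on the -/- array, beside 53% of all genes lower. Their median log2 ratio of -0.28 became -0.02 after raising the floor to the 70th percentile, and -0.08 where each gene was read from its least altered probe set. Hacd2, a dehydratase of the step after Hsd17b12, was the highest, at 11671 on the -/- array and 7355 on the +/+ array. Its log2 ratio was 0.67, and 2 of 2 probe sets were higher. The brightest probe sets of all 12 listed genes, 3 of them under the floor on both arrays, summed to 25079.1 on the -/- array and 22375.5 on the +/+ array. Hacd2 alone set the direction of that sum, since its own gap was wider than that of the sum. Such a sum also weights each gene by how strongly its probes bind. Hacd1, a relative of Hacd2, had -0.48 with 2 of 2 lower. Tecr, the reductase of the last step and a distant relative of the 5α-reductases, read 6570 on the -/- array and 7985 on the +/+ array, a log2 ratio of -0.28, and 2 of 2 were lower. Of the condensing enzymes that start the cycle, Elovl1 had 0.23 with 1 of 3 measured probe sets lower, at -0.82, and Elovl7 had -0.44 with 1 of 4 higher, at 0.85.

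Set against each other, the 4 genes differed most between Hsd17b12 and Srd5a3. The log2 ratio of Srd5a3 minus that of Hsd17b12 was -0.61, and the log2 ratio of Hsd17b10 minus that of Hsd17b12 was -0.53. A pair of probe sets of one gene differed with an SD of 0.505 on this scale, so both gaps are little more than 1 such SD, and the remaining pairs differed by less. The order Hsd17b12, Hsd17b11, Hsd17b10, Srd5a3 has no error between animals, and neighbours in it lay 0.08 to 0.27 apart, inside the spread between probe sets.

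**Figure D3:**
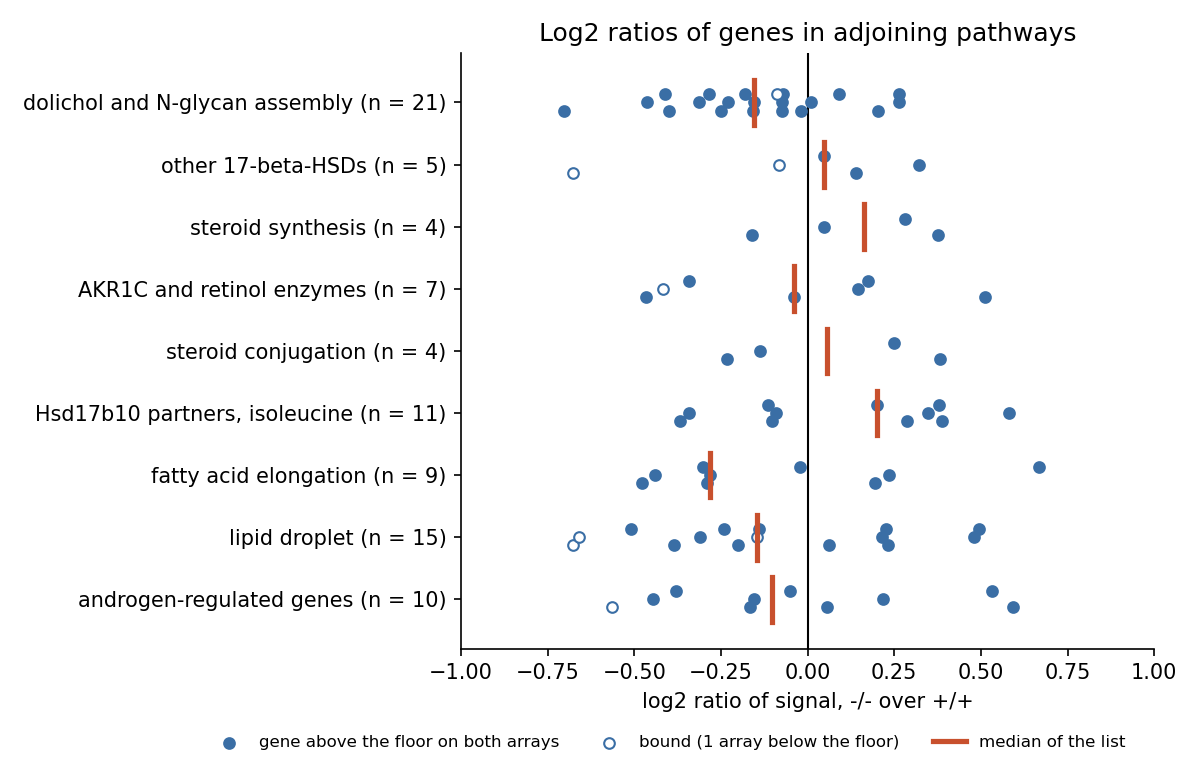
Log2 ratio (-/- over +/+) of each gene in 9 adjoining lists, with open points for bounds and a bar at each list's median, and n the genes that entered. Medians run from -0.28 for fatty acid elongation to 0.20 for the list of Hsd17b10 partners and isoleucine breakdown, and each list has genes on both sides of 0.

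A list of genes tied to androgen action in the prostate was read as a neighbouring measure, without the androgen receptor, which was not analysed here. The list, named androgen-regulated genes elsewhere here, also holds the transcription factors Foxa1 (0.22) and Hoxb13 (-0.17), so not every gene in it is an androgen target. Of 10 genes above the floor, 4 were higher and 6 lower on the -/- array, beside 53% of all genes lower. The median log2 ratio was -0.10, and Pmepa1, among the lower, was a bound of -0.57. Acpp, the prostatic acid phosphatase, read 522 on the -/- array and 346 on the +/+ array, a log2 ratio of 0.59, with its other probe sets under the floor. Tmprss2, a membrane protease, had 0.53 with 1 of 3 measured probe sets lower. Pbsn, the secreted probasin, read 26812 on the -/- array and 34870 on the +/+ array, a log2 ratio of -0.38, and the stress-responsive Ndrg1 had -0.45 with 1 of 3 higher.

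**Figure D4:**
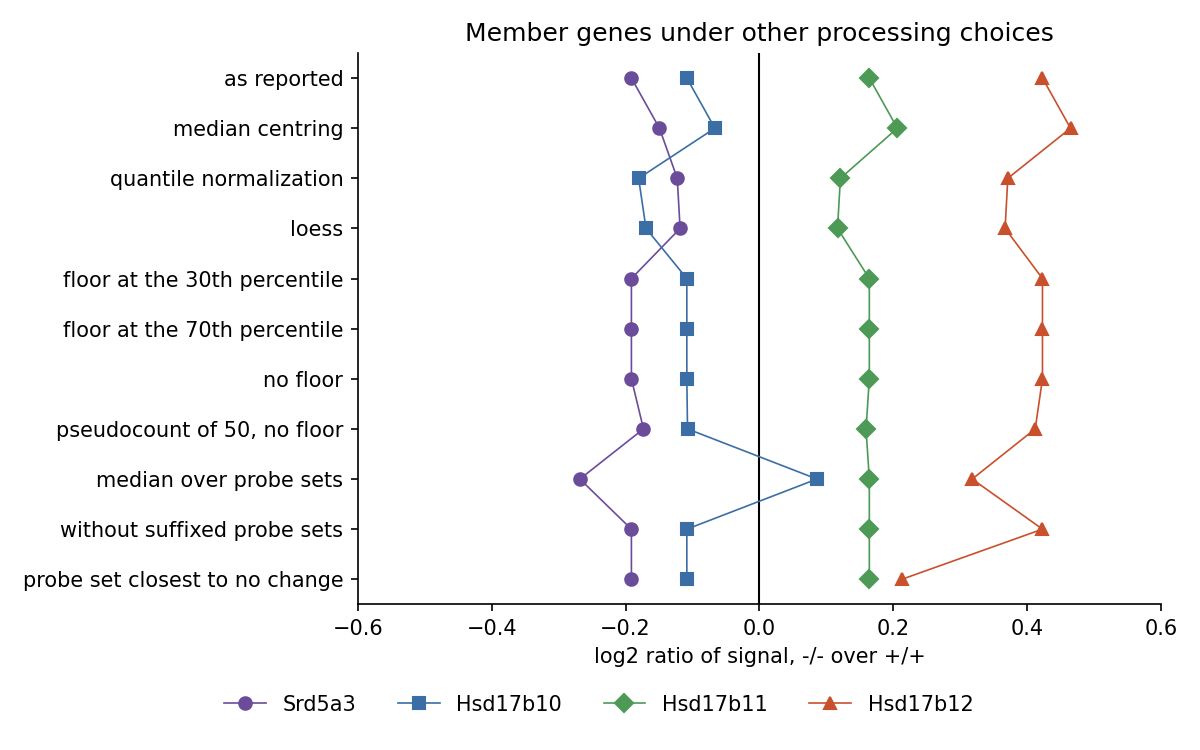
Log2 ratio (-/- over +/+) of the 4 genes above the floor as reported and under 10 other processing choices, 1 row each. Srd5a3 stays left of 0 and Hsd17b11 and Hsd17b12 right of it in all 10, while Hsd17b10 moves to 0.09 with the median over probe sets. Several choices could not move these points: changes of the floor alone, and leaving out probe sets with suffixed names, left all 4 as they were. Hsd17b11 had 1 probe set above the floor, so choices of probe set could not alter it. The place of Srd5a3 depends on its probe set, since 1445180_at stayed above 0 in the 7 choices that followed single probe sets.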

How the data were processed

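The deposited values were linear probe-set intensity signals from 2 Affymetrix arrays, made with GCOS 1.4 per the submitters' processing notes, with its settings not stated there. Per the labels, 5 ug of total RNA was turned into biotin-labelled cRNA. With 2% trimmed at each end, the mean signal was 500.0 on each array, which had thus been scaled as a whole, and the number of arrays limits the precision. Gene names came from the platform annotation, in which 45037 non-control probe sets were looked up: 34945 had 1 symbol, 932 several and 9160 none, and 34741 were matched by Entrez ID to the GRCm38.p6 gene table. The brightest probe set by mean log2 signal stood for a gene, and no pseudocount was added. Alternatives changed the scaling between arrays, the floor, the probe set and the fold threshold, 1 at a time, or added a pseudocount with the floor removed. Members were named in full, lists by up to 2 highest and 2 lowest genes measured on both arrays (in marker lists 1 each). Dhdds, Tecr, Trmt10c, Krt18, Taldo1, Kdr, Foxa1, Hoxb13 and genes under the floor on 1 or both arrays were added after their values were seen. Members and lists were chosen with earlier results of these data known. Calculations (Python 3.11.15, pandas 2.3.3, and a lowess of span 0.4 from statsmodels 0.14.6) were tested on simulated arrays.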

Additional observations from a re-analysis of the deposited data

How the results depend on the processing

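With 1 array per genotype no replicate could be left out. No paired analysis was possible because each genotype has 1 sample. The count of 0 genes differing by 2-fold was also 0 under all 12 alternatives, but not all of these could have changed it. With 0 genes at 2-fold, a threshold of 3-fold could only give 0, whereas that of 1.5-fold could have given more. Changes of the floor alone left the ratios of Srd5a3, Hsd17b10, Hsd17b11 and Hsd17b12 as they were, so for these genes they did not test the count. Leaving out probe sets with suffixed names, such as _s_at or _x_at, kept the brightest probe sets of these genes and did not test it either. The probe set closest to no change can only bring a ratio nearer 0, so it could not raise the count. The log2 ratio (-/- over +/+) of Srd5a3 ranged from -0.27 to -0.12, Hsd17b11 from 0.12 to 0.21 and Hsd17b12 from 0.21 to 0.46. Hsd17b10 ranged from -0.18 to 0.09, above 0 only with the median over probe sets. The members' median, 0.03, ran from -0.00088 to 0.16, below 0 under quantile normalization and loess. Without a floor Hsd17b2 entered, at 0.21, or 0.11 with a pseudocount of 50. Then 3 member genes lay above 0 instead of 2, as also with the median over probe sets. For the same reasons, not all of the 311 recomputed log2 ratios and medians could move. Of the 311, 1 moved by more than 0.36, the SD between probe sets of a gene: the median of the aldo-keto reductase and retinol list, -0.40 without a floor. It was 0.02 when probe sets were averaged by their median, and list medians changed sign for the other 17β-hydroxysteroid dehydrogenases (-0.13 to 0.15), steroid synthesis (-0.06 to 0.28), conjugation (-0.19 to 0.25), lipid droplets (-0.20 to 0.14) and androgen-regulated genes (-0.16 to 0.0031). In all 10, the medians of the dolichol list (-0.18 to -0.08) and the elongation list (-0.29 to -0.02) lay below 0 and that of the Hsd17b10 list (0.05 to 0.24) above it. The cause of these moves was not tested.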

Other observations

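Enzymes that supply NADPH, the cofactor that reductive steroid enzymes use, shared a list with Tkt and Taldo1, which do not form NADPH themselves. G6pdx was in the list but had no probe set with that single symbol, so it was not measured. Of the 6 measured genes 5 were higher on the -/- array, beside 47% of all genes. These were Tkt, Taldo1 (0.18), Pgd, Idh1 and H6pd (0.21), so the count is not one of NADPH-forming enzymes alone. The median log2 ratio was 0.20 and ran from 0.02 to 0.24 under the alternatives. Pgd, of the pentose phosphate pathway, read 3382 on the -/- array and 2404 on the +/+ array, a log2 ratio of 0.49, though 1 of 4 probe sets was lower. Tkt, the transketolase of the same pathway, had 0.47 in its brightest probe set and -0.20 in the other above the floor. The cytosolic isocitrate dehydrogenase Idh1 had 0.17 with 2 of 2 probe sets higher, and malic enzyme Me1 had -0.31 in its brightest probe set, while its other was at least 1.52-fold higher, at 252 on the -/- array and 72.1 on the +/+ array. None of the 6 differed by 2-fold.

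In the glucocorticoid branch, 2 of 5 genes were higher and 3 lower, with a median log2 ratio of -0.09 that was 0.08 under quantile normalization. Hsd11b1, which regenerates active glucocorticoid, read 796 on the -/- array and 1031 on the +/+ array, a log2 ratio of -0.37. Its cofactor partner H6pd had 0.21. Hsd11b2, which inactivates glucocorticoid, lay near the floor at 172 on the -/- array and 185 on the +/+ array. The mineralocorticoid receptor Nr3c2 had 0.45.

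Among the remaining markers, 5 of 8 endothelial genes were lower on the -/- array, beside 53% of all genes. They ran from Emcn at -0.72 to Cldn5 at 0.13. Of the 5 counted as lower, Kdr read 480 on both arrays, and Tek was a bound of -0.12. Leukocyte genes had a median of -0.32, from H2-Ab1 at -0.77 to Ptprc at 0.33, and basal epithelial genes a median of 0.04, from Krt5 at -0.62 to Dst at 0.72. Urothelial markers summed to 4902 on the -/- array and 6885 on the +/+ array, with Upk2 at 0.17. Upk1b had -0.58 in its brightest probe set, while its other 3 read -2.27, -2.06 and -2.03, or 4.08- to 4.82-fold lower. Luminal markers ran from Pbsn at -0.38 to Tmprss2 at 0.53 and smooth muscle markers from Cnn1 at -0.87 to Lmod1 at 0.04. Fibroblast markers ran from Fbln2, 2.17-fold lower, to Fbln1 at 0.09, whose other probe set above the floor had -0.90, and adipocyte markers from Retn at -0.18 to Car3, 5.47-fold higher.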
